A study of Mus musculus with 11 samples.

Results

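The 40 genes described here carry glucose to lactate, handle pyruvate, or belong to the oxygen-sensing HIF system, and their RNA was measured in alveolar macrophages of newborn mice exposed to high oxygen. They were chosen by symbol from 57180 gene identifiers in a table of read counts. They form 3 sets, with 22 genes of glucose uptake, glycolysis and lactate, 11 of pyruvate handling and the glycerol phosphate shuttle, and 7 of HIF and its targets. Of the 40, 39 passed the filter on low counts and were tested among 19948 genes. Adm, the secreted peptide adrenomedullin and a classical HIF target, did not pass, with 0 to 9 counts in a library.

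All pups were wild-type C57BL/6. Exposed pups breathed 95% oxygen from postnatal day 1 to day 5 (hyperoxia), the others were kept in normoxia, and macrophages of both sexes were sorted from homogenised lungs on postnatal day 7. Bulk RNA-seq gave 3 libraries of normoxia males (NM1 to NM3), 3 of normoxia females (NF1 to NF3), 2 of hyperoxia males (HM2 and HM3) and 3 of hyperoxia females (HF1 to HF3). The labels leave unsaid whether each library is 1 animal or a pool and which antibodies defined the sort, so the p-values below reflect library-to-library spread, part of which may be technical. Levels are given in CPM, counts relative to the TMM-scaled library size. A level set against that of another gene is given as CPM per kb of exon.

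Glycolysis splits glucose into pyruvate in the cytosol. Lactate dehydrogenase, a tetramer of A and B subunits encoded by Ldha and Ldhb, interconverts pyruvate and lactate, and monocarboxylate transporters carry lactate across the membrane. Pyruvate that enters mitochondria through the MPC carrier is oxidised by pyruvate dehydrogenase, which the PDK kinases shut off, or is carboxylated to oxaloacetate by pyruvate carboxylase (Pcx). HIF is a transcription factor whose alpha subunit is marked for destruction by the oxygen-dependent prolyl hydroxylases (Egln genes), so that its control lies largely in protein stability, which RNA does not report. Its targets include most genes of glycolysis. Alveolar macrophages live in an oxygen-rich and glucose-poor air space, clear surfactant lipid, and are known for a low reliance on glycolysis.

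HIF binds a short DNA core, searched here as the letters ACGTG or GCGTG on either strand. The search used the 250 bases before each start site in RefSeq's promoters (GRCm38.p6), where 38 of the 40 genes had an entry and Gpd1 and Ndrg1 had none. Of 55 member windows, 44 (80.0%) held a core match, against 12679 of 32851 windows of the whole table (38.6%). By gene, 36 of 38 members (94.7%) had a match in at least 1 of their windows, against 41.5% of 27025 genes, and Gpi1 and Tpi1 had none. The palindrome CACGTG, an E-box that overlaps the core, was in 14.5% of member windows and 6.02% of all windows. No correction was made for base composition or for the number of windows per gene, and the whole table was not limited to the genes tested here. A match is a description of the letters, not a binding site. The 4 windows below are shown because they set genes that did and did not pass the test of hyperoxia beside their core matches, which are in capitals. Overlapping matches on the 2 strands were counted apart, so each CACGTG counts as 2 matches, as does the CACGCGTG of Ankrd37. Ldha (chr7:46845554-46845803, plus strand, 1 of its 2 windows) held 5 matches with 2 E-boxes, and Ldhb (chr6:142507958-142508207, minus strand) held 1. Pcx (chr19:4510222-4510471, plus strand, 1 of its 2 windows, the other without a match) held 3 matches with 1 E-box, and Ankrd37 (chr8:45999851-46000100, minus strand) held 4.
Ldha: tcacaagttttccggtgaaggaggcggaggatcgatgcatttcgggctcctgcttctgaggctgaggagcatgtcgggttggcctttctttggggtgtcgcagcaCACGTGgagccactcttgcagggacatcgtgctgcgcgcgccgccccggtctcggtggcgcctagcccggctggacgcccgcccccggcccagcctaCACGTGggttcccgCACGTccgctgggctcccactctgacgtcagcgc
Ldhb: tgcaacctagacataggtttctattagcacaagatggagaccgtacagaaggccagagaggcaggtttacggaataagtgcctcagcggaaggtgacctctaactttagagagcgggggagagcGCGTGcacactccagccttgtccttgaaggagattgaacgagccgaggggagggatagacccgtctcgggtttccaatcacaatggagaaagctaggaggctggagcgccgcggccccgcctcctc
Pcx: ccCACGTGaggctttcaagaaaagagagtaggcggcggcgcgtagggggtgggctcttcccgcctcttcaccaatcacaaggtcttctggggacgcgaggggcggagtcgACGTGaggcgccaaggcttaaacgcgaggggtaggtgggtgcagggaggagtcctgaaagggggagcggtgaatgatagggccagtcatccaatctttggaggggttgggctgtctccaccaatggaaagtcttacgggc
Ankrd37: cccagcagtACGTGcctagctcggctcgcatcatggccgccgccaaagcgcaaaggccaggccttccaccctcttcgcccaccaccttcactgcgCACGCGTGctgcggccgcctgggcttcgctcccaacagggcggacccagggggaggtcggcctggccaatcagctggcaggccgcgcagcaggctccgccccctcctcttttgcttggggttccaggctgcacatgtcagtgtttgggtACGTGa

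Total counts ran from 18087948 (NM3) to 32579468 (NF1) per library, and 3 counts corresponded to 0.0880 to 0.160 CPM. NM3, NF3, HF2 and HF3 had more genes detected (33158 to 35530) than the other 7 libraries (26856 to 30173). NM3 stood apart for the genes of interest, holding the lowest level of all 11 libraries for 25 of 39 tested members, including 17 of 22 in glycolysis. Alveolar macrophage markers summed to 3397 to 5616 CPM in normoxia and 3588 to 5135 CPM in hyperoxia. Of these 10 markers, 2 passed the test, Ear1 (232 to 327 CPM in normoxia, 104 to 158 CPM in hyperoxia) and Fabp4 (12.1 to 36.7 CPM and 3.96 to 11.8 CPM). Of 8 monocyte markers, 1 passed, the integrin chain Itgam, with a log2 fold change of 1.59. The list summed to 94.5 to 149.9 CPM in normoxia and 141 to 276 CPM in hyperoxia, or 141 to 183 CPM without HF2. Interstitial macrophage markers (0 of 7 tested passed) summed to 20.5 to 43.1 and 31.2 to 118 CPM, the latter 31.2 to 55.6 CPM without HF2. Neutrophil markers (1 of 7 tested passed, Mmp8) summed to 15.4 to 32.9 and 34.8 to 46.5 CPM, with Ly6g at 0 counts in every library. Erythroid markers (0 of 7) summed to 101 to 1218 and 54.0 to 308 CPM. Of the epithelial, endothelial, mesenchymal, T and NK and B cell markers none passed edgeR's test, and each of these lists summed to at most 186 CPM in any library. Of the markers tested, 2 of 10 alveolar macrophage, 7 of 8 monocyte, 7 of 7 interstitial macrophage and 5 of 7 neutrophil markers had a fold change above 0. So did 0 of 7 erythroid, 6 of 9 epithelial, 0 of 6 endothelial, 2 of 7 mesenchymal, 4 of 4 T and NK and 1 of 4 B cell markers. The part of these markers in the results below was not tested. In bulk RNA, fewer cells of a type and less RNA per cell cannot be told apart.

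Hyperoxia was first compared with normoxia, averaged over the sexes. Of the 39 tested members, 3 passed edgeR's quasi-likelihood test after Benjamini-Hochberg adjustment over all genes. Ldhb and Pcx rose and Gpd1 fell, where 0.707% of all genes tested passed (0.541% higher and 0.165% lower). A total of 9 members had an unadjusted p under 0.05, where 8.13% of all genes did. The other 36 members had log2 fold changes between -0.43 and 1.13. By set, 14 of 22 glycolysis genes, 6 of 11 pyruvate and glycerol phosphate genes and 4 of 6 HIF genes had a fold change above 0, with median log2 fold changes of 0.21, 0.04 and 0.12. Over all genes tested the median was -0.03, and 45.9% lay above 0. Without NM3 the medians of the 3 sets were 0.08, -0.07 and 0.15, and the all-gene median was -0.01.

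**Figure D1:**
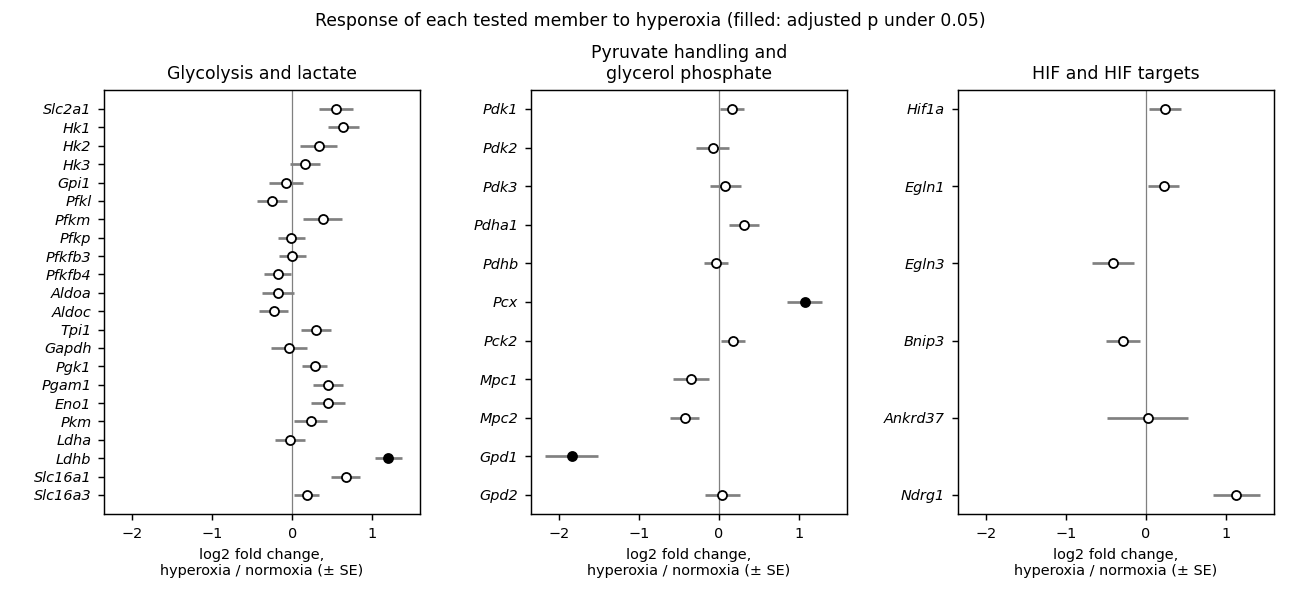
Log2 fold change of hyperoxia over normoxia, averaged over the sexes, for the 39 tested members in 3 panels by set; points are edgeR estimates, bars are 1 SE on either side, and filled points passed an adjusted p of 0.05. Ldhb (1.20), Pcx (1.07) and Gpd1 (-1.84) are the filled points, and Ndrg1 (1.13) is open.

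The 5 highest levels per exon length among the members were those of glycolysis genes. In normoxia the mean levels per exon length were 311 CPM per kb for Gapdh, 205 for Aldoa, 108 for Ldha, 86.4 for Pkm and 80.8 for Eno1. The lowest of the set was Pfkm, the muscle form of phosphofructokinase, at 0.872 CPM per kb, and its count can hold reads of Senp1, which overlaps it on the opposite strand at 436 to 1502 counts.

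At the entry of the pathway, the glucose transporter gene Slc2a1 stood at 36.3, 33.0 and 13.6 CPM in NM1 to NM3 and at 29.2, 31.4 and 30.3 CPM in NF1 to NF3. After hyperoxia it stood at 41.4 and 52.3 CPM in HM2 and HM3 and at 44.9, 41.0 and 29.5 CPM in HF1 to HF3. HF3 lay among the normoxia libraries, and the other hyperoxia libraries lay above all of them. The log2 fold change was 0.55 ± 0.21 (SE) with an edgeR adjusted p of 0.414, and it was 0.37 without NM3.

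Hexokinase traps glucose in the cell, and 3 of its genes were measured. Hk1 stood at 16.2, 20.4 and 10.4 CPM in the normoxia males, 24.7, 23.2 and 16.9 CPM in the normoxia females, 25.2 and 32.8 CPM in the hyperoxia males and 33.0, 31.4 and 20.9 CPM in the hyperoxia females. Again only HF3 overlapped the normoxia range. Its log2 fold change of 0.64 ± 0.19 (SE) did not pass edgeR's test (adjusted p = 0.178), nor did those of Hk2 (0.33 ± 0.23) and Hk3 (0.16 ± 0.19). As a share of the 3 hexokinase transcripts per exon length, Hk1 made up 13.4% to 14.7% in the normoxia libraries and 16.3% to 19.7% in the hyperoxia libraries, without overlap. Hk2 took 38.4% to 47.5% and 38.0% to 46.6%, and Hk3 38.3% to 47.4% and 34.2% to 43.9%. Shares per exon length, here and below, were not tested. Hk3 shares exon sequence with Unc5a on the opposite strand, which had up to 34.8% of its count.

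The middle of the pathway showed no call. Gpi1, the phosphofructokinase genes Pfkl, Pfkm and Pfkp, the regulators Pfkfb3 and Pfkfb4, and the aldolases Aldoa and Aldoc had log2 fold changes from -0.25 (Pfkl) to 0.38 (Pfkm). Pfkp, the platelet form, was the main phosphofructokinase in every library, at 58.3% to 63.2% of the 3 per exon length in normoxia and 60.7% to 65.5% in hyperoxia. Its exons overlap Pitrm1 on the opposite strand, whose count was at most 57.8% of that of Pfkp. Aldoa outweighed Aldoc, which took 5.47% to 6.48% of the pair in normoxia and 5.02% to 6.74% in hyperoxia.

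Further down, where the pathway yields ATP, the fold changes ran from -0.04 to 0.45. Gapdh, the dehydrogenase often used as a reference gene, stood at 1479, 1564 and 659.8 CPM in NM1 to NM3 and 1395, 1498 and 1114 CPM in NF1 to NF3. Its hyperoxia levels were 1393 and 1268 CPM in HM2 and HM3 and 1327, 1172 and 996 CPM in HF1 to HF3. All 5 hyperoxia libraries lay inside the normoxia range, and the log2 fold change was -0.04 ± 0.23 (SE), turning to 0.01 with limma voom. Gapdh has 90 near-identical copies in the annotation, which together had at most 5.31% of its count.

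Pkm, pyruvate kinase of the last step, stood at 456, 510.5 and 261 CPM in NM1 to NM3, 492, 489.7 and 385 CPM in NF1 to NF3, 518 and 502 CPM in HM2 and HM3, and 568, 543 and 395 CPM in HF1 to HF3. The groups overlapped, and the log2 fold change was 0.23 ± 0.21 (SE; edgeR adjusted p = 0.931), or 0.10 without NM3. Pgam1 and Eno1, which convert 3-phosphoglycerate towards phosphoenolpyruvate, each had a log2 fold change of 0.45 (SE 0.19 and 0.21), with edgeR adjusted p of 0.488 and 0.620. Tpi1 and Pgk1 had 0.30 ± 0.19 and 0.28 ± 0.16 (SE), and Spsb2, which overlaps Tpi1 on the opposite strand, had at most 22.7% of its count.

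**Figure D2:**
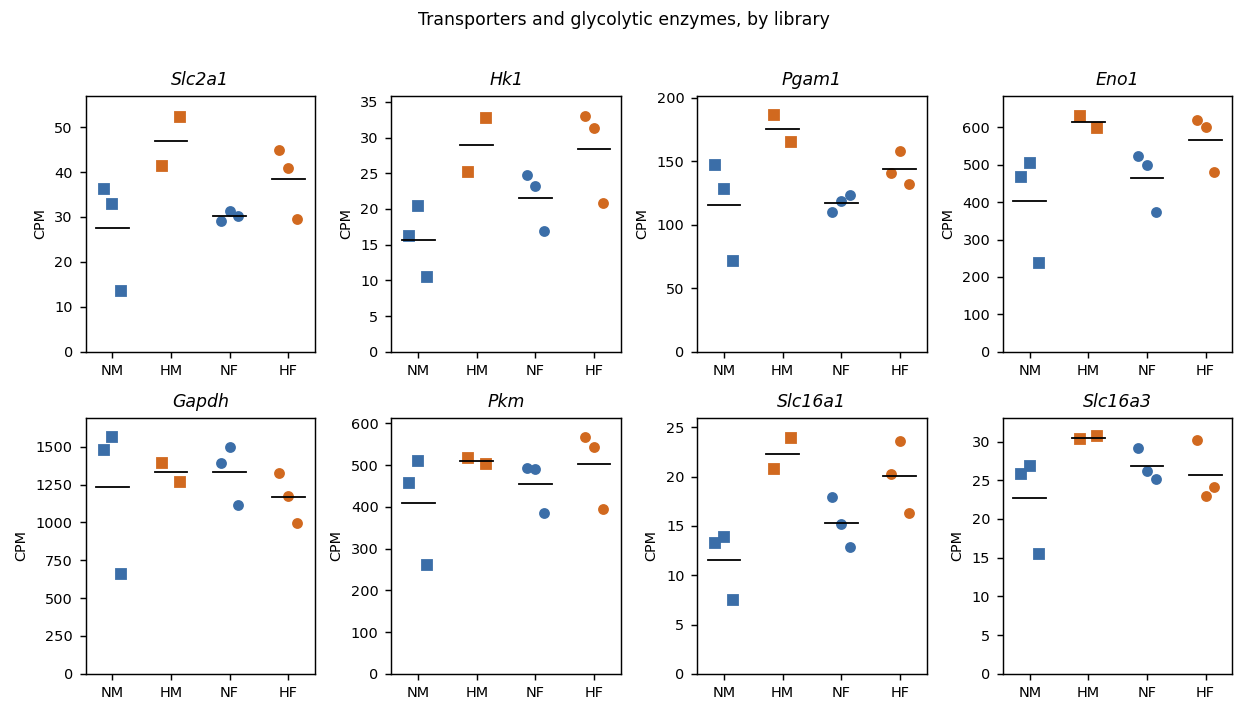
Level in CPM of 8 transporter and glycolysis genes in each library; squares are males, circles females, blue normoxia, orange hyperoxia, and bars are group means. NM3 is the lowest of the 11 points in each panel, at 13.6 CPM for Slc2a1 and 659.8 CPM for Gapdh.

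Of the 2 lactate dehydrogenase genes, Ldhb passed the test and Ldha did not, and the difference between their responses was not tested. Ldhb, whose subunit is classed as the form favouring lactate oxidation, stood at 27.7, 15 and 16.3 CPM in NM1 to NM3 and at 14.9, 14.3 and 17.6 CPM in NF1 to NF3. After hyperoxia it stood at 45.7 and 43.3 CPM in HM2 and HM3 and at 31.2, 37.9 and 39.1 CPM in HF1 to HF3. Every hyperoxia library lay above every normoxia library. The rise was 2.29-fold, a log2 fold change of 1.20 ± 0.17 (SE), with an edgeR adjusted p of 0.00265.

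NM1, the normoxia library with most Ldhb, had an erythroid marker sum of 1218 CPM, and the hyperoxia libraries had 54.0 to 308 CPM. Neutrophil marker sums were 15.4 to 32.9 CPM in normoxia and 34.8 to 46.5 CPM in hyperoxia, and monocyte marker sums were 94.5 to 149.9 CPM and 141 to 276 CPM. Within these sums, Mmp8, the 1 neutrophil marker past the test, stood at 6.09 to 17.2 and 18.6 to 25.7 CPM. Itgam, the 1 monocyte marker past the test, stood at 11.4 to 27 and 43.3 to 88.3 CPM. The part of these markers in the Ldhb levels was not tested. When NM3, NF3, HF2 and HF3, the 4 libraries with most genes, were left out, HF1 was the single library of its group, its spread was taken from the other groups, and the Ldhb log2 fold change was 1.08 with an adjusted p of 0.0686. The single near-identical copy of Ldhb had at most 1.59% of its count.

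Ldha, the subunit that favours lactate formation and a classical HIF target, stood at 489, 359 and 289 CPM in NM1 to NM3, 312, 313 and 374 CPM in NF1 to NF3, 422 and 339 CPM in HM2 and HM3, and 326, 292 and 339.7 CPM in HF1 to HF3. All hyperoxia libraries lay within the normoxia range. The log2 fold change was -0.03 ± 0.19 (SE), and it was 0.01 with the replicate number as a block. Per exon length, Ldhb made up 8.07% to 10.7% of both transcripts in normoxia and 16.8% to 21.5% in hyperoxia, so Ldha remained the larger part in all 11 libraries. The window printed for Ldha has more core matches than that of Ldhb, where overlapping matches on both strands were counted apart. Any relation between core matches and the response to hyperoxia was not tested.

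Slc16a1, the monocarboxylate transporter MCT1, stood at 13.3, 13.9 and 7.53 CPM in NM1 to NM3, 17.9, 15.2 and 12.9 CPM in NF1 to NF3, 20.8 and 23.9 CPM in HM2 and HM3, and 20.3, 23.6 and 16.3 CPM in HF1 to HF3. HF3 lay below NF1, and the other hyperoxia libraries lay above all normoxia libraries. Its difference of 0.67 ± 0.18 (log2, SE) missed the threshold in edgeR (adjusted p = 0.116) and passed in DESeq2 (0.0286). Slc16a3, the lactate exporter MCT4 and a HIF target, had 0.18 ± 0.16.

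Pyruvate handling held the other members past the test. Pcx, which replenishes oxaloacetate from pyruvate, stood at 1.17, 1.54 and 1.5 CPM in NM1 to NM3 and at 3.56, 3.59 and 3.45 CPM in NF1 to NF3. After hyperoxia it stood at 4.77 and 4.71 CPM in HM2 and HM3 and at 5.21, 5.40 and 3.33 CPM in HF1 to HF3. Normoxia males were the low group, and HF3 lay just below the normoxia females.

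Averaged over the sexes the Pcx rise was 2.10-fold, a log2 fold change of 1.07 ± 0.22 (SE), with an edgeR adjusted p of 0.0298. The counts behind it were 22 to 112 in normoxia and 97 to 184 in hyperoxia. This call was kept in 9 of 18 alternative analyses, against 17 for Ldhb and 15 for Gpd1, and the log2 fold change ran from 0.99 to 1.17 across them. Leaving out NM1, NF1, NF2, HM2, HM3, HF1 or HF2, using limma voom, or leaving out the 4 libraries with most genes ended it, with adjusted p of 0.0522 to 0.167.

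Gpd1, the cytosolic glycerol-3-phosphate dehydrogenase that links glycolysis to glycerolipid synthesis and to the shuttle of reducing equivalents, fell. It stood at 2.35, 4.87 and 1.96 CPM in NM1 to NM3, 4.01, 4.02 and 2.33 CPM in NF1 to NF3, 0.985 and 1.20 CPM in HM2 and HM3, and 0.730, 0.645 and 0.892 CPM in HF1 to HF3. No hyperoxia library reached the lowest normoxia library, a separation seen downwards in 0.396% of all genes tested. The log2 fold change was -1.84 ± 0.33 (SE), to 0.280 of the normoxia level, with an edgeR adjusted p of 0.0138.

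Leaving out HM2, HM3 or the 4 libraries with most genes ended the Gpd1 call, with adjusted p of 0.124, 0.103 and 0.0545 and fold changes of -1.77, -1.91 and -2.09. Its counts were 38 to 126 in normoxia and 22 to 32 in hyperoxia, and Gm16537, which overlaps it on the opposite strand, had 0 to 5. Gpd2, the mitochondrial partner enzyme of the shuttle, had a log2 fold change of 0.04 ± 0.22 (SE), with 45.2 to 102 CPM in normoxia and 59.2 to 89.0 CPM in hyperoxia. Gpd1 made up 7.69% to 10.3% of the pair per exon length in normoxia and 1.58% to 3.23% in hyperoxia.

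Among the pyruvate dehydrogenase kinases, Pdk4 alone passed the test. Pdk1, the HIF-responsive kinase, stood at 61.1, 62.8 and 51.5 CPM in NM1 to NM3, 66.5, 60.3 and 49.8 CPM in NF1 to NF3, 64.0 and 70.6 CPM in HM2 and HM3, and 69.1, 59.8 and 63.1 CPM in HF1 to HF3. These groups overlapped, with a log2 fold change of 0.16 ± 0.15 (SE; edgeR adjusted p = 0.941). Pdk2 and Pdk3 had -0.08 ± 0.21 and 0.08 ± 0.19. Pdk4, a kinase induced by fatty acids through PPAR receptors and not a member of the 40, fell from 5.71, 9.67 and 4.49 CPM in NM1 to NM3 and 5.22, 4.98 and 7.54 CPM in NF1 to NF3. It stood at 0.749 and 2.02 CPM in HM2 and HM3 and at 1.66, 1.70 and 1.30 CPM in HF1 to HF3.

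Every hyperoxia library was below every normoxia library for Pdk4. Its log2 fold change was -2.09 ± 0.29 (SE), with an edgeR adjusted p of 0.00212, and it missed the threshold without the 4 libraries with most genes (-2.04, adjusted p = 0.0557). Of the 4 kinase transcripts per exon length, Pdk4 took 4.85% to 9.48% in normoxia and 0.835% to 2.05% in hyperoxia. By this measure Pdk3 was the largest of the 4 in every library, at 40% to 49.3% and 47.7% to 52.9%. In CPM not divided by exon length, Pdk1 lay above Pdk3 in every library. In normoxia they stood at 49.8 to 66.5 and 18.5 to 40.8 CPM, and in hyperoxia at 59.8 to 70.6 and 27.4 to 40.4 CPM. Their order thus rests on the exon lengths used, 7779 bases for Pdk1 and 2561 for Pdk3.

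**Figure D3:**
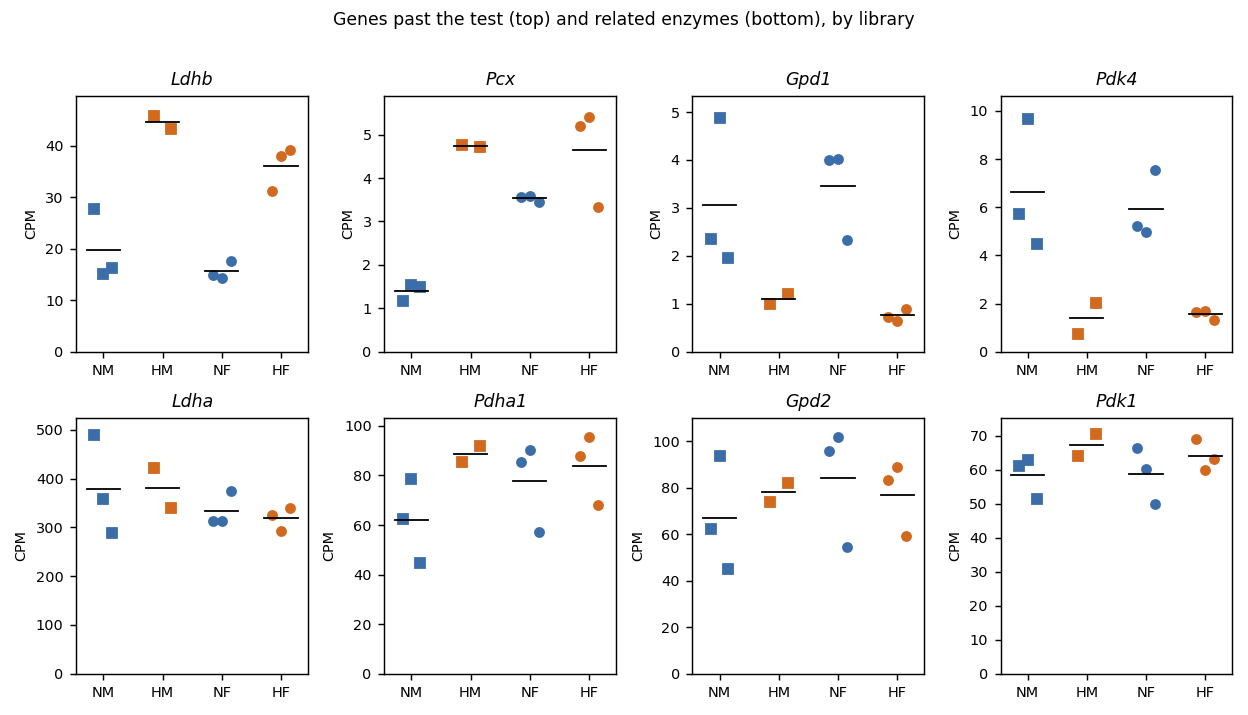
Level in CPM in each library of the 4 genes past the test (top) and a related enzyme below each; squares are males, circles females, blue normoxia, orange hyperoxia, and bars are group means. Ldhb, Gpd1 and Pdk4 separate the oxygen groups without overlap, while Pcx is low in normoxia males (1.17 to 1.54 CPM) and the lower 4 genes overlap.

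The enzyme that Pdk4 acts on was not called. Pdha1, the catalytic alpha subunit of pyruvate dehydrogenase, stood at 62.5, 78.7 and 44.5 CPM in NM1 to NM3, 85.6, 90.1 and 57.2 CPM in NF1 to NF3, 85.5 and 91.8 CPM in HM2 and HM3, and 87.9, 95.7 and 68.0 CPM in HF1 to HF3. Its groups overlapped, with a log2 fold change of 0.31 ± 0.19 (SE; edgeR adjusted p = 0.791), and that of the beta subunit Pdhb was -0.04 ± 0.15. Pck2, which makes phosphoenolpyruvate from oxaloacetate in mitochondria, had 0.18 ± 0.15.

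Both subunits of the mitochondrial pyruvate carrier were below 0. Mpc2 stood at 88.3, 67.2 and 78.9 CPM in NM1 to NM3, 47.6, 54.6 and 82.8 CPM in NF1 to NF3, 59.4 and 53.3 CPM in HM2 and HM3, and 46.3, 40.5 and 54.3 CPM in HF1 to HF3. The groups overlapped through NF1 and NF2. Its log2 fold change of -0.43 ± 0.18 (SE) did not pass (edgeR adjusted p = 0.468), nor did that of Mpc1, at -0.35 ± 0.22. The 2 near-identical copies of Mpc1 had at most 10.6% of its count.

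In the HIF set 0 of 6 tested genes passed edgeR's test, and 1 (Ndrg1) had an unadjusted p under 0.05, where 8.13% of all genes did. DESeq2 called 1, Ndrg1, among 425 genes in all. Hif1a, which encodes the oxygen-regulated alpha subunit, stood at 100.5, 128 and 67.8 CPM in NM1 to NM3, 123, 131 and 91.0 CPM in NF1 to NF3, 109.6 and 138 CPM in HM2 and HM3, and 140.4, 144 and 101 CPM in HF1 to HF3. The groups overlapped, and the log2 fold change was 0.24 ± 0.20 (SE; edgeR adjusted p = 0.900). It was 0.13 without NM3, 0.16 without HM3 and 0.36 without NM2. Per exon length Hif1a was the most abundant of its set, at 18.1 CPM per kb in normoxia and 21.5 in hyperoxia. Egln1, the main prolyl hydroxylase, followed at 12.1 and 14.3 CPM per kb, with a log2 fold change of 0.22 ± 0.19.

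Egln3, a prolyl hydroxylase that is itself induced by HIF, stood at 2.78, 3.46 and 2.74 CPM in NM1 to NM3, 2.89, 2.03 and 3.92 CPM in NF1 to NF3, 1.81 and 2.51 CPM in HM2 and HM3, and 2.16, 2.38 and 2.37 CPM in HF1 to HF3. The female groups overlapped and the male groups did not. The log2 fold change was -0.41 ± 0.26 (SE; edgeR adjusted p = 0.813).

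Bnip3, a mediator of mitophagy induced by HIF, stood at 18.0, 14 and 24.2 CPM in NM1 to NM3, 10.5, 14.7 and 24.9 CPM in NF1 to NF3, 18.1 and 14.8 CPM in HM2 and HM3, and 12.8, 11.2 and 13.9 CPM in HF1 to HF3. Its highest levels were in NM3 and NF3, and the groups overlapped. Its difference of -0.29 ± 0.21 (log2, SE) turned to 0.03 without the 4 libraries with most genes, and it was -0.09 without NF3 alone. Its 5 near-identical copies had at most 9.79% of its count. Ankrd37, a small HIF-induced gene, had 0.02 ± 0.50 on 7 to 24 counts, and Ufsp2 overlaps it on the opposite strand with 502 to 1580 counts.

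Ndrg1, a gene induced by hypoxia and by differentiation, was the HIF-set gene with the largest difference. It stood at 1.60, 0.917 and 0.826 CPM in NM1 to NM3, 1.40, 1.14 and 1.16 CPM in NF1 to NF3, 2.84 and 2.21 CPM in HM2 and HM3, and 2.72, 2.32 and 2.78 CPM in HF1 to HF3. Every hyperoxia library lay above every normoxia library, as for 1.76% of all genes tested, and among the members Ldhb was the other such gene. Its difference of 1.13 ± 0.29 (log2, SE) missed the threshold in edgeR (adjusted p = 0.105) and passed in DESeq2 (0.0219). Its counts were 16 to 44 in normoxia and 59 to 82 in hyperoxia, and Gm2895 on the opposite strand had 1 to 19. The 19 were in NM3, where Ndrg1 had 16. Together with Gm17035, also on the opposite strand with 0 to 5 counts, the overlapping genes had at most 150% of the Ndrg1 count.

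**Figure D4:**
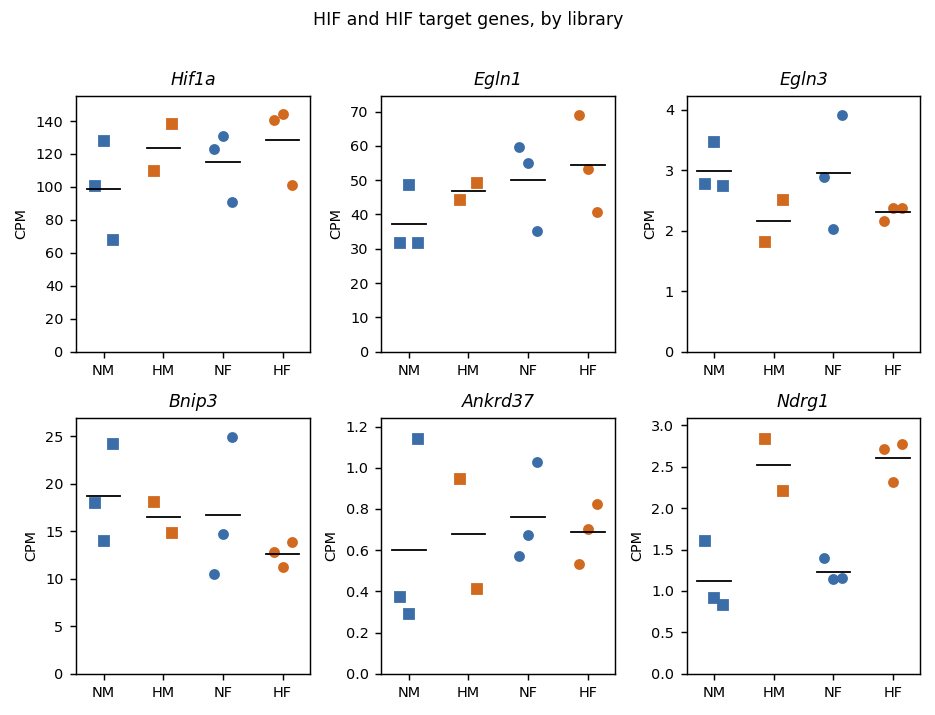
Level in CPM in each library of the 6 tested HIF genes; squares are males, circles females, blue normoxia, orange hyperoxia, and bars are group means. Only in the Ndrg1 panel do all 5 hyperoxia libraries (2.21 to 2.84 CPM) lie above all 6 normoxia libraries (0.826 to 1.60 CPM).

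Hyperoxia was next compared with normoxia within each sex. In males 0 of 39 members passed edgeR's test, where 0.0401% of all genes did, and 8 had an unadjusted p under 0.05, where 5.5% of all genes did. DESeq2 called 2 of them in males, Ldhb and Pcx, among 86 genes in all. In females 0 members passed edgeR's test, where again 0.0401% of all genes did, and 3 had an unadjusted p under 0.05, where 4.53% did. DESeq2 called 2 in females, Gpd1 and Ldhb, among 80 genes in all. The members by smallest p were Pcx in males (1.75 ± 0.33 SE, edgeR adjusted p = 0.0848) and Ldhb in females (1.21 ± 0.23, edgeR adjusted p = 0.0948).

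In males 11 members had hyperoxia libraries above all normoxia libraries and 3 below, where 8.62% and 8.49% of all genes tested did. Those above were Slc2a1, Hk1, Pgam1, Eno1, Ldhb, Slc16a1, Slc16a3, Pdk1, Pdha1, Pcx and Ndrg1, and those below were Mpc2, Gpd1 and Egln3. In females 7 lay above and 1 below, where 6.23% and 4.01% of all genes did. These were Pfkm, Tpi1, Pgk1, Pgam1, Ldhb, Pck2 and Ndrg1 above and Gpd1 below.

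The median log2 fold change over the 39 members was 0.20 in males, with 29 above 0, and 0.00 in females, with 20 above 0. The male value rested on NM3, and without that library it was 0.04, with 23 above 0. For single genes the male log2 fold changes without NM3 fell from 0.76 to 0.43 for Slc2a1, from 0.89 to 0.67 for Hk1, from 0.95 to 0.72 for Slc16a1 and from 0.32 to 0.08 for Pkm. That of Gapdh went from 0.11 to -0.19. Those of Ldhb (1.18 and 1.06) and Pcx (1.75 and 1.80) moved less.

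The difference between the sexes in response was tested as an interaction, the female response minus the male response. No member and none of the 19948 genes passed edgeR's test (0% of genes), while 1 member and 334 genes (1.67%) had an unadjusted p under 0.05. DESeq2 called 3 genes and limma voom 0, and neither called a member. The 1 member was Pcx, at -1.36 ± 0.43 (SE; edgeR adjusted p = 1). Across the members the median interaction was -0.21, with 6 of 39 above 0, where the all-gene median was 0.01. Without NM3 it was -0.05, with 17 above 0.

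**Figure D5:**
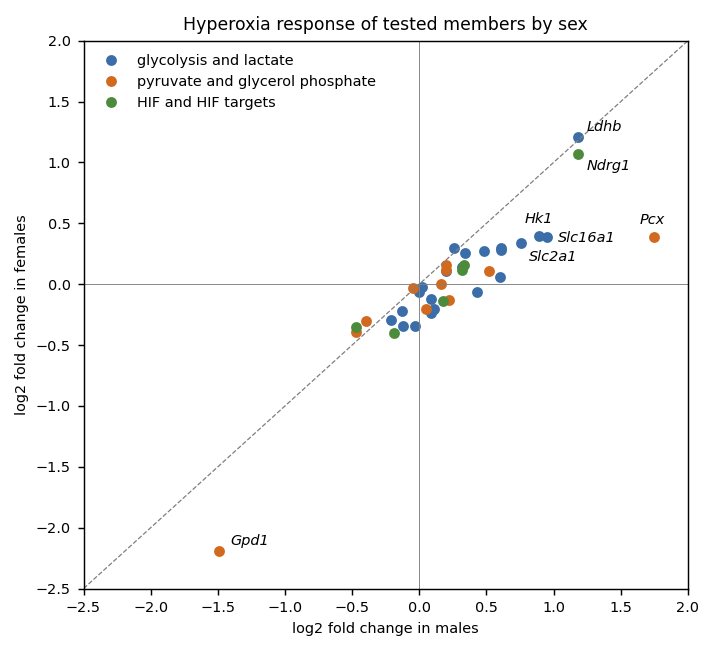
Log2 fold change of hyperoxia over normoxia in females against that in males, 1 point per tested member, coloured by set, with the dashed line marking equal responses. Ldhb, Ndrg1 and Gpd1 lie far from 0 in both sexes, while Pcx lies at 1.75 in males and 0.39 in females.

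Females were also compared with males at each oxygen level. In normoxia 0 members passed edgeR's test, where 0.0251% of all genes did, and 1 had an unadjusted p under 0.05, where 3.63% did. That member was Pcx, higher in females by a log2 value of 1.33 ± 0.30 (SE; edgeR adjusted p = 0.664). Its female libraries all lay above the male libraries, as for 1.48% of all genes, and no member had all its female libraries below the male ones, as 4.14% of all genes did. In hyperoxia 0 members passed, where 0.0251% of genes did, and 0 had an unadjusted p under 0.05, where 1.73% did. There the Pcx difference was -0.03 ± 0.32. Pgam1, Ldhb, Slc16a3, Gpd1 and Bnip3 were lower in all hyperoxia females than in both hyperoxia males, as for 7.73% of all genes, and no member was higher in all of them, as 6.55% were. DESeq2 and limma voom called 0 members in either sex comparison.

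Around the 40 genes, 67 other genes of the same pathways were listed and 61 tested. Pdk4 was the only gene among them past edgeR's test in the average over the sexes, where 0.707% of all genes tested passed. Of the 61, 3 had an unadjusted p under 0.05, where 8.13% of all genes did. The median log2 fold change of the 61 was -0.02, with 27 above 0. By group, 0 of 14 further glycolysis and gluconeogenesis genes, 0 of 7 pentose phosphate genes, 0 of 6 glycogen genes and 0 of 6 HIF regulators passed, and none of these had an unadjusted p under 0.05 or was called by DESeq2. Epas1, which encodes the HIF-2 alpha subunit, had a log2 fold change of -0.34 ± 0.20 (SE), which was -0.13 without NM3, its highest library at 82.9 CPM. Arnt, the shared beta subunit, had 0.06 ± 0.19, and -0.04 without NM3.

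Of 20 further HIF targets 0 passed edgeR's test. Where 8.13% of all genes tested had an unadjusted p under 0.05, 2 of the 20 did. These were Plin2, a lipid droplet coat protein (-0.59 ± 0.19, edgeR adjusted p = 0.234), and Cited2, a feedback inhibitor of HIF (-0.41 ± 0.19, edgeR adjusted p = 0.591). Cited2 averaged 275 CPM in normoxia and 273 CPM in hyperoxia in males, and 238 and 135 CPM in females. The difference between these responses did not pass edgeR's test. DESeq2 called 1 of the 20, Plin2, among 425 genes in all. In normoxia Plin2 stood at 707 CPM in NM3 and at 959.5 to 1079 CPM in the other libraries, and in hyperoxia at 563 to 740.5 CPM. Its log2 fold change was -0.69 without NM3 (edgeR adjusted p = 0.0504). Besides DESeq2, only the stricter filter called it (edgeR adjusted p = 0.0295). Of the 20, 6 had a fold change above 0, and their median log2 fold change was -0.12. Vegfa, the angiogenic growth factor, had -0.01 ± 0.33, and values from -0.62 (without HM2) to 0.33 (without HM3) with a library left out. Within each sex, in the interaction and between the sexes, 0 of the 61 genes passed edgeR's test, where 0% to 0.0401% of all genes did. In each of these contrasts 1 to 3 had an unadjusted p under 0.05, where 1.67% to 5.5% of all genes did. DESeq2 called Pdk4 in males, Pdk4 and Cited2 in females, and Cited2 between the sexes in hyperoxia. Its calls over all genes numbered 86, 80 and 24 in these contrasts.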

How the data were processed

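The authors deposited 1 table of whole-number read counts per Ensembl gene for 11 libraries, without normalization. A low-input cDNA kit was used, molecular identifiers of 8 bases were trimmed with the adapters, and some libraries (which is not said) were size-selected and sequenced again, per the labels' protocols. STAR 2.7.9, Trim Galore 0.6.7, DESeq2 1.42, R 4.3.2 and Salmon 1.10.1 are named with build mm39, per the submitters' processing notes. Whether counting used strand or collapsed duplicates is not given in the sources used here, so overlapping genes, antisense genes and close copies may share reads. All columns were mapped to a sample.

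Symbols were matched to 51884 of 57180 identifiers (90.7%). The main analysis was edgeR 4.0.16 in R 4.3.3 (filterByExpr, minimum count 10 and minimum total 15; TMM scaling; 1 mean per group; robust quasi-likelihood F-test; Benjamini-Hochberg over 19948 genes, threshold 0.05) for 6 contrasts of oxygen and sex. Standard errors come from the F-test. The procedure was tested on simulated counts. Exon lengths, overlaps and near-identical copies (at least 95% identity over 200 bases) were taken from GENCODE M21, which is of build GRCm38, so no coordinates from it are printed. The exon length of a gene joins all its annotated exons, whichever transcripts are expressed. Replicates differed by more than sampling noise (smallest chi-square per gene 18.7). Floors of 3 counts cover counting error only. Alternatives were DESeq2 1.42.0, its size factors, limma voom 3.58.1, other filters, a replicate block, leaving libraries out, and fits of 1 sex. Genes with values in every library are those past the test, the 4 of smallest p in each set, and Slc2a1, Gapdh, Pkm, Ldha, Hif1a and Pdk1 by role. The members and lists were chosen with earlier results of these data known.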

Additional observations from a re-analysis of the deposited data

How the results depend on the processing

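Members past the test in the average over the sexes numbered 3 in the reported analysis. They numbered 5 with a stricter filter (at least 1 CPM in at least 5 libraries), 5 in DESeq2, 5 with the replicate number as a block, 0 without the 4 libraries with most genes, and 1 to 3 with each library left out in turn. Hk1 and Slc16a1 were added by the stricter filter and the block, and Ndrg1 and Slc16a1 by DESeq2. Leaving out HM2 or HM3 left 1, Ldhb. In males the count of 0 became 2 without a filter on low counts, 2 in DESeq2 and 0 to 1 with a library left out. In females it became 2 without the filter, 2 in DESeq2, 1 with the block, 1 with female libraries alone and 0 to 2 with a library left out. All genes past the test numbered 141, and 302 without a filter, 302 with the stricter filter, 425 in DESeq2, 256 with the block, 23 without the 4 libraries (10 higher and 13 lower, against 108 and 33) and 36 to 195 with a library left out. The low ends were without HM3 (36), HM2 (48), HF2 (63), NF1 (65) and NF2 (80). These counts come from different numbers of genes. The reported analysis and the block tested 19948, the fit without a filter 47573 and the stricter filter 12935, and DESeq2 was run on all 57180 identifiers. Without HM2 or HM3, where the smallest group held 1 library, the filter kept 23406 and 23420 genes. Members past the test in the interaction and in both sex comparisons stayed at 0 under every alternative run.

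Some fold changes that did not pass the test changed sign. That of Gapdh over both sexes was 0.01 with limma voom, 0.04 with the block and -0.20 to 0.06 with a library left out, and in males -0.19 without the 4 libraries and -0.19 to 0.31 with a library left out. That of Ldha over both sexes was 0.01 with the block and -0.12 to 0.07 with a library left out. In males the Ldha value was -0.02 with DESeq2 size factors, -0.07 with the stricter filter, -0.02 in DESeq2, -0.16 without the 4 libraries, -0.02 with male libraries alone and -0.16 to 0.22 with a library left out. In females it was 0.06 without the 4 libraries and -0.13 to 0.03 with a library left out. Pdha1 in females ran from -0.06 to 0.24 with a library left out. Bnip3, at -0.29 over both sexes in the reported analysis, was without the 4 libraries 0.03 over both sexes, 0.04 in males and 0.03 in females, and with a library left out it ran from -0.36 to 0.04 in males and -0.65 to 0.01 in females. The cause of these shifts was not tested.

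The labels do not say what a shared replicate number stands for. In deviations from group means, same-numbered normoxia males and females correlated at 0.133, 0.437 and 0.574, and differently numbered ones from -0.543 to 0.318. NM1 correlated more with NF2 (0.168) than with NF1 (0.133), so these values do not settle whether the numbers pair libraries. The block left the comparison of normoxia males and females at 0 members. Between hyperoxia and normoxia, same-numbered libraries correlated from -0.167 to 0.486, with HF1 and HF3 at 0.291 to 0.486, HF2 at -0.167 and -0.0883, and all pairs of hyperoxia males below 0, so the numbers were not taken to pair these groups. With the block, adjusted p was 0.0425 for Hk1 and 0.029 for Slc16a1, against 0.178 and 0.116. Without HM2 or HM3 the spread of the remaining male library was taken from the other groups, and the low-count filter kept more genes. Depth limited Adm, Ankrd37, Ndrg1, Pcx and Gpd1 most, with lowest counts of 0, 7, 16, 22 and 22.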
